A study of Mus musculus with 9 samples.

Results

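The transcriptomes of mouse CD8+ T cells kept for 24 h with inosine plus hypoxanthine were compared with those of cells kept with glucose, over all 20618 genes of the deposited table. The comparison uses 6 of the 9 RNA-seq libraries of the study, 3 from each medium, and the medium is the only property by which the labels separate them. The glucose medium held 2 mM glucose. The other held 2 mM inosine together with hypoxanthine, whose molar dose cannot be read from the labels because the unit has lost its prefix. The remaining 3 libraries came from cells in 2 mM inosine alone, and their values stand beside the 2 others where they bear on a result. All libraries came from wild type primary cells in medium with 10% dialyzed FBS, sorted when about 80% of the cells were alive, and belong to a single batch by the labels. Since the media differ both in lacking glucose and in holding inosine with hypoxanthine, this comparison alone cannot tell those 2 changes apart. Whether the 3 libraries of each medium stem from different mice or culture wells is not said in the labels, and every p-value therefore measures the spread between these libraries, which may be technical.

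CD8+ T cells are the cytotoxic lymphocytes that kill infected and malignant cells, and once activated they draw heavily on glucose for energy, ribose and building blocks. Inosine is a purine nucleoside that purine nucleoside phosphorylase (Pnp) splits into hypoxanthine and ribose 1-phosphate. The ribose part can enter the pentose phosphate pathway and glycolysis, so inosine can stand in for glucose as a carbon source. Hypoxanthine is either joined to phosphoribosyl pyrophosphate by hypoxanthine phosphoribosyltransferase (Hprt), which returns it to the nucleotide pool, or oxidised by xanthine dehydrogenase (Xdh) towards uric acid. It is therefore a product of inosine breakdown as well as a substrate of nucleotide salvage.

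Depth, recovered as whole reads from the deposited group means, ran from 30835555 to 50067500 reads over the 9 libraries. The T cell genes Cd3e, Cd3d, Cd3g, Cd8a and Cd8b1 were all expressed in each library. Markers of B cells summed to 1.36 to 1.94 FPKM in glucose and 1.42 to 1.72 with hypoxanthine, and those of myeloid and dendritic cells to 4.78 to 6.58 and 4.86 to 6.55, with Csf1r at 0 in both media and 1 of 12 members called in each direction. Markers of epithelial, endothelial and stromal cells summed to 3.98 to 5.0 FPKM in glucose and 6.17 to 6.74 with hypoxanthine, with Epcam and Pecam1 called higher of 6 measured members, and markers of NK and gamma delta T cells to 0.161 to 0.208 and 0.297 to 0.306. Each of these 2 sums gave p = 0.1 in an exact two-sided permutation test, the smallest p that 3 against 3 libraries allow, and their part in the results was not tested. Transcripts of mitochondrial DNA made up 4.03% to 4.7% of FPKM in glucose and 4.05% to 5.84% with hypoxanthine. In a principal component analysis the first component held 68.6% of the variance and placed the 3 hypoxanthine libraries between 25.6 and 27.8, with all glucose and inosine libraries between -15.0 and -11.9.

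Of the 20618 genes 4192, or 20.3%, were called different between the media, 2224 higher and 1968 lower with hypoxanthine. Genes of the T cell receptor complex, checkpoint and costimulatory receptors, chemokines and early activation genes stood among the higher ones. Granzymes and genes of ribosome assembly, tRNA charging, serine, sterol and glucose metabolism stood among the lower ones. In bulk libraries such as these, less RNA per cell and fewer cells that express a gene cannot be told apart. A call is an adjusted p under 0.05 in limma on log2(FPKM + 1), where FPKM gives fragments relative to gene length and library depth, with no fold minimum, and 6723 genes had an unadjusted p under 0.05. Differences are given below as hypoxanthine minus glucose on that scale, which understates the change of genes of low level.

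Most changes were small. The median size was 0.41 for higher genes, while lower genes fell by 0.40 at the median, and 177 higher and 98 lower genes changed by at least 1 on the log2 scale. The median over all genes was 0.0012. Calls were more frequent among abundant genes, and there more often downward. Among genes of 1 to 10 FPKM, 943 were higher and 511 lower, while among the 589 genes of at least 100 FPKM, 77 were higher and 160 lower. Genes called lower took 22.5% to 23.1% of all FPKM in the glucose libraries and 14.2% to 15.6% in the hypoxanthine libraries. Those called higher took 13.6% to 13.7% and 19.6% to 19.7%. Both shares were chosen by the calls and describe their weight in the transcriptome. Of 15468 protein-coding genes 24.5% were called, and of 4283 long noncoding RNA genes 7.84%. Without hypoxanthine library 3 the count was 2677, of which 2605 were among the 4192. Where the text gives a number of list members without a named library, it is the count in a fit that left out that library, printed where it differs from the full count by more than 1.5 times and by at least 2 members.

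**Figure D1:**
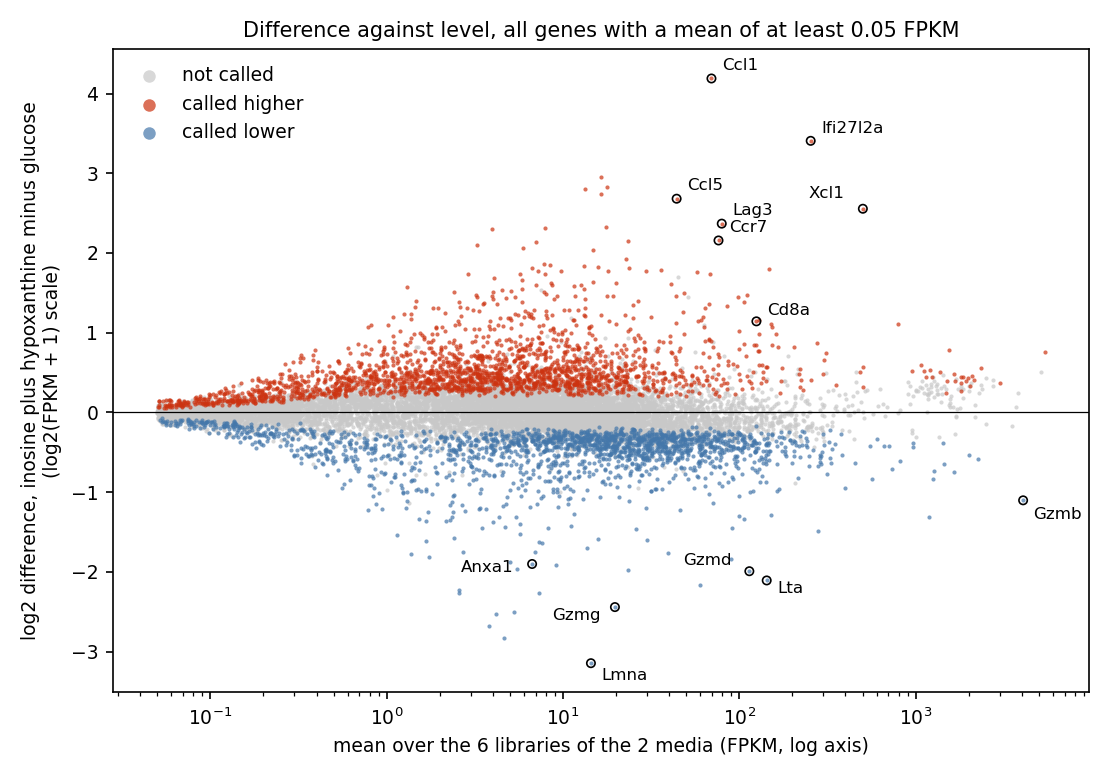
Each point is a gene with a mean of at least 0.05 FPKM over the 6 libraries, with that mean on a log axis and the log2 difference, inosine plus hypoxanthine minus glucose, on the other. Red genes were called higher and blue genes lower by limma, grey genes were not called, and among the genes of at least 100 FPKM on the right 160 were lower and 77 higher.

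The largest rises included 3 chemokines and the receptors Lag3 and Ccr7, and the largest falls included Lmna, 3 granzymes and 2 cysteine protease inhibitors. The rule took the 12 largest rises and 12 largest falls among called genes of at least 5 FPKM whose libraries did not overlap, which held for 37.6% of all genes. The values of these genes chose them and are a description. The same holds for list members named below by their adjusted p, whose lack of overlap is part of that description.

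Ccl1, a T cell chemokine that acts through Ccr8, was at 20.3, 0.605 and 9.55 FPKM in glucose and 128, 125 and 133 FPKM with hypoxanthine, a log2 difference of 4.19 ± 0.89, adjusted p = 0.0108. The glucose values differed widely among themselves, and so did the inosine values at 17.4, 2.57 and 9.15 FPKM, while the hypoxanthine libraries lay close together and above all of them. Ifi27l2a, an interferon-induced gene, was at 26.8, 58.2 and 49.2 FPKM in glucose and 418, 536 and 435 FPKM with hypoxanthine (3.41 ± 0.31, adjusted p = 0.000187). Ifi211, a member of the interferon-inducible Ifi200 family, rose from 3.02, 2.70 and 3.25 FPKM to 27.8, 33.2 and 28.9 FPKM (2.95 ± 0.09, adjusted p = 3.24e-06). Reads of Ifi211 may be shared with its near-identical neighbours, so its level is uncertain. Ccl5, a chemokine of memory and effector cells, rose from 8.16, 14.6 and 11.4 FPKM to 81.8, 68.9 and 79.8 FPKM (2.68 ± 0.18, adjusted p = 4.57e-05). Xcl1, the chemokine that attracts cross-presenting dendritic cells, was at 293, 58.2 and 163 FPKM in glucose and 826, 859 and 815 FPKM with hypoxanthine (2.55 ± 0.55, adjusted p = 0.0118). As for Ccl1, the glucose libraries were spread over a wide range and the hypoxanthine libraries were not. In 10 of the 12 rises the log2 SD was larger in glucose than with hypoxanthine. The other 7 rises were Izumo1r (Folr4), the folate receptor family protein of T cells, at 2.83 ± 0.32, adjusted p = 0.000527, Nrgn at 2.80 ± 0.30, adjusted p = 0.000428, the serine protease Prss16 at 2.73 ± 0.13, adjusted p = 1.21e-05, the inhibitory receptor Lag3 at 2.37 ± 0.12, adjusted p = 1.21e-05, the orphan nuclear receptor Nr4a2 at 2.32 ± 0.31, adjusted p = 0.00117, the macrophage growth factor Csf1 at 2.31 ± 0.26, adjusted p = 0.000525, and the lymph node homing receptor Ccr7 at 2.16 ± 0.15, adjusted p = 5.75e-05.

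Lmna, which encodes the A-type lamins of the nuclear envelope, was at 24.2, 30.5 and 25.4 FPKM in glucose and 2.22, 1.89 and 2.25 FPKM with hypoxanthine, a 12.6-fold lower mean. It fell by 3.14 ± 0.11 (SE, adjusted p = 3.24e-06) on the log2 scale, and its inosine libraries, at 24.2, 22.3 and 27.5 FPKM, lay with glucose. Upp1, uridine phosphorylase, which frees ribose 1-phosphate from uridine as Pnp does from inosine, went from 29.9, 45.7 and 38.4 FPKM to 8.41, 9.51 and 8.53 FPKM (-1.97 ± 0.23, adjusted p = 0.000654). Lta, the cytokine lymphotoxin alpha, went from 196, 274 and 228 FPKM to 53.7, 52.8 and 51.6 FPKM (-2.11 ± 0.18, adjusted p = 0.000154). Every library of both genes was lower with hypoxanthine than the lowest glucose library. Cstdc4 (-2.50 ± 0.24, adjusted p = 0.000262) and Csta2 (-1.96 ± 0.20, adjusted p = 0.000319) belong to the stefin A cluster of cysteine protease inhibitors, whose copies are alike enough that reads may be split between them, and the receptor gene Pilrb1 (-2.26 ± 0.11, adjusted p = 1.21e-05) has a close copy too. The leukotriene B4 receptor Ltb4r1 (-1.91 ± 0.10, adjusted p = 2.05e-05), the membrane-binding protein annexin A1 (Anxa1, -1.90 ± 0.11, adjusted p = 2.28e-05), the prolyl isomerase Fkbp11 (-1.87 ± 0.12, adjusted p = 3.73e-05) and 3 granzymes, described below, completed the list. For all 24 genes the 3 hypoxanthine libraries also lay beyond all 3 inosine libraries, in the same direction. The same hypoxanthine libraries chose these genes, so this is a description. None of the 24 was called between inosine and glucose, where 2 of all 20618 genes, or 0.0097%, were called.

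**Figure D2:**
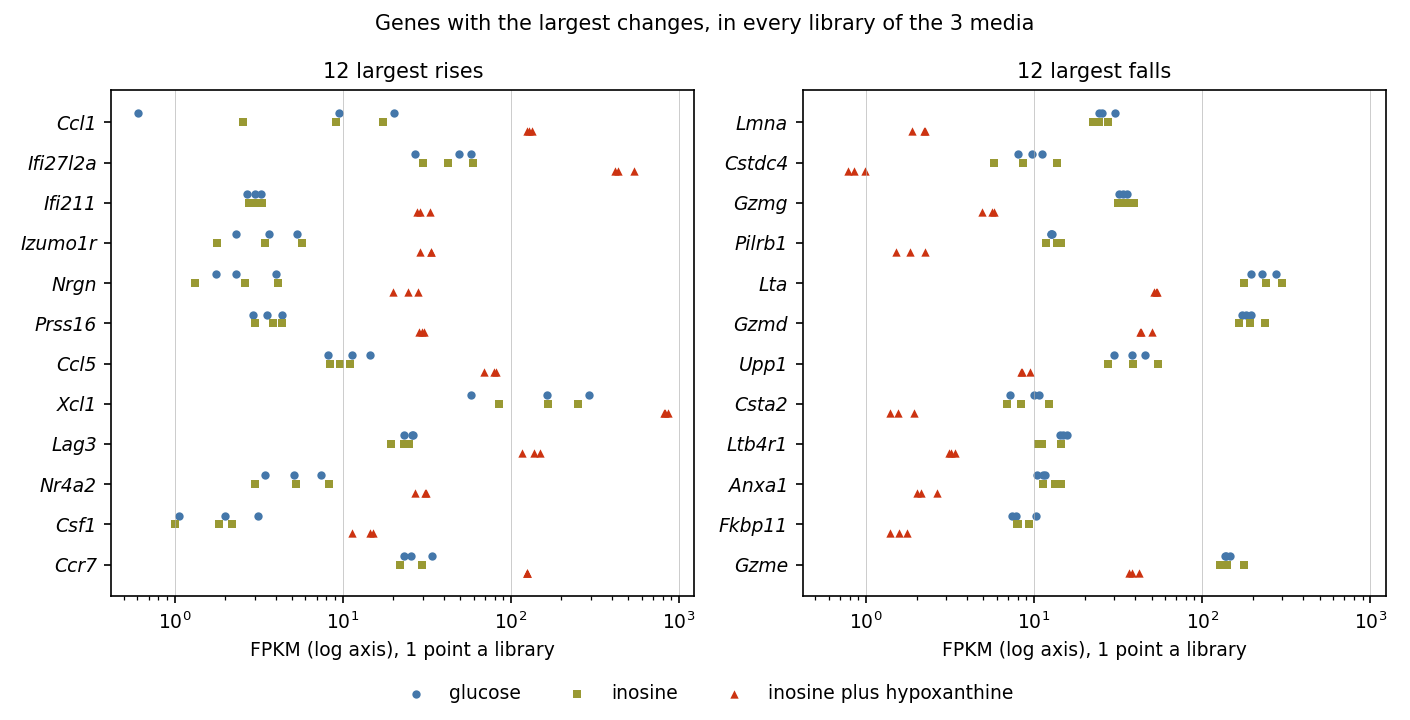
FPKM on a log axis of the 12 largest rises and 12 largest falls, with 1 point for each of the 9 libraries, circles for glucose, squares for inosine and triangles for inosine plus hypoxanthine. For each gene the triangles lie apart from all circles and squares, as for Lmna at 2.22, 1.89 and 2.25 FPKM against 24.2, 30.5 and 25.4 FPKM in glucose.

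Among the genes that handle inosine and hypoxanthine themselves, 3 nucleoside transporters, the hypoxanthine-oxidising Xdh and the ectonucleotidase Nt5e were higher, and Pnp and the adenine salvage genes Aprt and Mtap were lower. Of 19 measured genes of salvage and breakdown, 3 were called higher and 3 lower with a median of -0.03, and with 5 lower without inosine library 2. Among all genes 10.8% were called higher and 9.55% lower, and among genes of at least 1 FPKM 31.0% were called in either direction. Pnp was at 23.8, 23.7 and 24.7 FPKM in glucose, at 23.4, 29.7 and 27.1 FPKM in inosine alone and 18.3, 20.4 and 18 FPKM with hypoxanthine. The hypoxanthine libraries were the lowest of the 9, and the difference from glucose was -0.33 ± 0.09, adjusted p = 0.0308. The call of Pnp was lost in 6 of 9 fits that left out 1 library, with the largest adjusted p, 0.113, without hypoxanthine library 3. Pnp has a close copy beside it, Pnp2, so reads may be split between them. Hprt did not pass the test, at 132, 123 and 136 FPKM in glucose and 109, 129 and 110.0 FPKM with hypoxanthine (-0.17 ± 0.09, adjusted p = 0.261), and its libraries overlapped. Xdh, which consumes hypoxanthine, rose from 7.49, 11.4 and 8.42 FPKM to 15.7, 13.1 and 15.8 FPKM (0.67 ± 0.13, adjusted p = 0.00856). Nt5e, the surface 5′-nucleotidase CD73 that makes adenosine from AMP, rose from 0.995, 0.894 and 1.03 FPKM to 2.63, 2.89 and 3.16 FPKM (0.98 ± 0.10, adjusted p = 0.000267). It remained a gene of low level, and its hypoxanthine libraries were all at least 2.63 FPKM where no glucose library passed 1.03 FPKM. Aprt, which salvages adenine, fell from 185, 166 and 167 FPKM to 109, 120.5 and 108 FPKM (-0.61 ± 0.09, adjusted p = 0.00201). Mtap, which releases adenine from methylthioadenosine, went from 31.2, 31.3 and 31.2 FPKM to 23.1, 21.1 and 21.7 FPKM (-0.49 ± 0.06, adjusted p = 0.000689), and both fell without overlap.

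Of 7 measured nucleoside and base transporters, 3 were called higher and 1, Slc29a2 (named after its values were seen), was called lower. Slc29a1, the equilibrative transporter ENT1 that carries inosine and adenosine, rose from 35.6, 35.5 and 33.6 FPKM to 50.9, 48.3 and 49.6 FPKM (0.50 ± 0.07, adjusted p = 0.0015). Slc29a3, its lysosomal relative, rose from 2.11, 2.54 and 2.30 FPKM to 4.21, 3.99 and 4.77 FPKM (0.68 ± 0.09, adjusted p = 0.00115). Slc28a2, the sodium-coupled purine nucleoside transporter, rose from 6.82, 9.15 and 8.59 FPKM to 13.4, 15.5 and 15.9 FPKM (0.80 ± 0.13, adjusted p = 0.00345). These 3 calls held in all 9 fits that left out 1 library. Slc43a3, which carries purine bases such as hypoxanthine itself, was at 28.8, 31.5 and 29.5 FPKM and 29.9, 30.8 and 31.1 FPKM and was not called (0.03 ± 0.07, adjusted p = 0.815).

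De novo purine synthesis, which builds inosine monophosphate stepwise on phosphoribosyl pyrophosphate, had 1 of 11 genes higher and 4 lower with a median of -0.14, and with 2 lower without glucose library 1, or hypoxanthine library 2 or 3. Atic, whose protein catalyses the last 2 steps to inosine monophosphate, fell from 85.9, 82.7 and 79.6 FPKM to 62.3, 57.7 and 60.2 FPKM (-0.46 ± 0.06, adjusted p = 0.0016). Gart went from 72.9, 71.4 and 66.5 FPKM to 60.0, 52 and 55.2 FPKM (-0.33 ± 0.07, adjusted p = 0.0122). The 2 isoenzymes that turn inosine monophosphate towards guanine nucleotides differed, with Impdh1 at 49.4, 41.7 and 40.9 FPKM in glucose and 26.5, 20.6 and 25.9 FPKM with hypoxanthine (-0.83 ± 0.20, adjusted p = 0.019) and Impdh2 at 0.01 ± 0.13, adjusted p = 0.985, not called. The call of Impdh1 was lost in 3 of 9 fits that left out 1 library, with the largest adjusted p, 0.0698, without hypoxanthine library 2. In the pentose phosphate pathway, through which ribose 1-phosphate carbon passes, 2 of 16 genes were higher and 5 lower with a median of -0.23, and with 2 lower without glucose library 1 or 3, or hypoxanthine library 1 or 3, and 3 without glucose library 2. Pgd, which makes ribulose 5-phosphate and NADPH, fell from 104, 90.4 and 89.2 FPKM to 62.5, 55.9 and 58.6 FPKM (-0.67 ± 0.09, adjusted p = 0.0012), and Rpia, which makes ribose 5-phosphate, from 40.9, 44 and 42.2 FPKM to 29.6, 26 and 28.1 FPKM (-0.59 ± 0.07, adjusted p = 0.00059). Pgls, the step before Pgd, moved the other way (0.45 ± 0.07, adjusted p = 0.00298), and the transketolase gene Tkt was not called (-0.15 ± 0.12, adjusted p = 0.442). Of 22 genes of pyrimidine and deoxynucleotide synthesis 6 were lower and 1 higher, and with 3 higher without glucose library 2. The lower share was 36.4% for de novo purine synthesis, 31.2% for the pentose phosphate list and 27.3% for the pyrimidine list. Among all genes 9.55% were lower, with 895 of 4365 genes of 10 to 100 FPKM and 160 of 589 of at least 100 FPKM. The pyrimidine and pentose phosphate shares were thus near that of abundant genes. Dhodh, the mitochondrial step to uridine monophosphate, was at -0.67 ± 0.08, adjusted p = 0.000553, the dUTPase gene Dut at -0.43 ± 0.07, adjusted p = 0.00213 and the ribonucleotide reductase subunit Rrm2 at -0.50 ± 0.09, adjusted p = 0.00456. Adenosine signalling genes were divided, with 7 of 20 higher and 3 lower, and with 4 higher without glucose library 2, or hypoxanthine library 2 or 3. The adenosine receptor gene Adora2b fell from 7.72, 7.47 and 7.89 FPKM to 3.54, 3.30 and 3.64 FPKM (-0.95 ± 0.06, adjusted p = 4.24e-05), and the ectonucleotidase CD39 (Entpd1) from 6.97, 8.39 and 7.74 FPKM to 3.82, 3.68 and 3.93 FPKM (-0.85 ± 0.08, adjusted p = 0.000262).

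**Figure D3:**
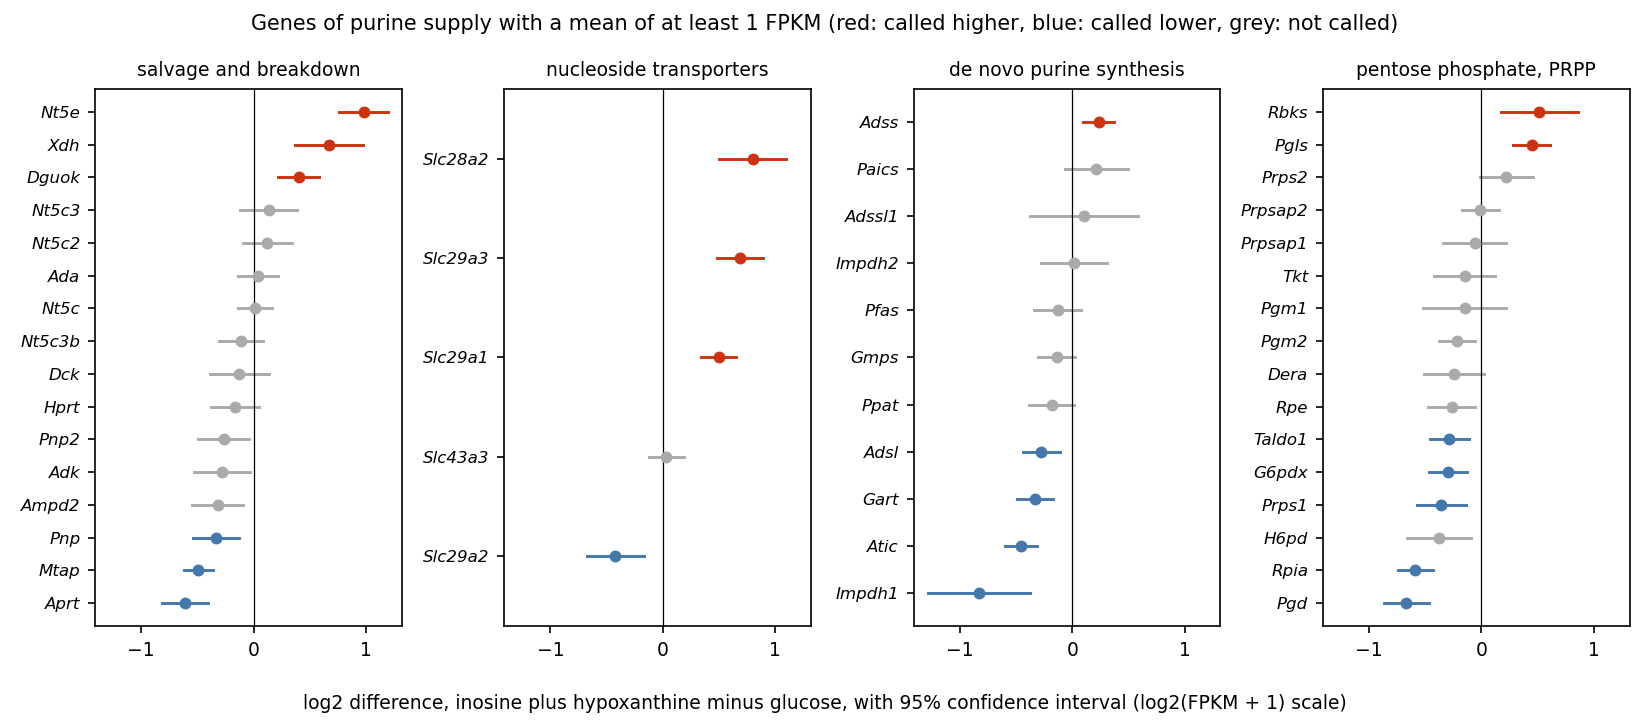
Log2 difference, inosine plus hypoxanthine minus glucose, with its 95% confidence interval for each gene of at least 1 FPKM in 4 lists, where red is called higher, blue called lower and grey not called. Nt5e and Xdh lead the rises among salvage genes, Aprt and Mtap the falls, 3 of the transporters rise, and the falls of Pgd and Rpia are the largest of the pentose phosphate list.

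Most genes of the citrate cycle and a smaller share of the glycolytic genes were lower with hypoxanthine. The oxidative phosphorylation genes were lower at about the share of abundant genes in general, but 0 were higher. The transcripts of mitochondrial DNA were not called. Of 25 glycolysis genes 9 were lower and 1 higher, with a median of -0.29. Pkm, the pyruvate kinase gene, was at 1716, 1560.3 and 1556 FPKM in glucose and 922, 878 and 901 FPKM with hypoxanthine (-0.84 ± 0.08, adjusted p = 0.000235). Eno1, enolase, went from 2308, 1968 and 1991 FPKM to 1209, 1304 and 1207 FPKM (-0.75 ± 0.09, adjusted p = 0.000652), and Ldha, lactate dehydrogenase, from 1871, 1704 and 1745 FPKM to 1118, 1171 and 1105 FPKM (-0.65 ± 0.07, adjusted p = 0.000451). In all 3 the highest hypoxanthine library was below the lowest glucose library. The inosine libraries held Pkm at 1658, 1509 and 1759 FPKM and Ldha at 1775, 1829 and 1917 FPKM. Pgk1 (-0.61 ± 0.07, adjusted p = 0.00057) and Gapdh (-0.53 ± 0.11, adjusted p = 0.0104) fell as well. Slc2a1, the gene of the glucose transporter GLUT1, was at 104, 72.6 and 82.1 FPKM and 75.6, 63.3 and 70.7 FPKM, which overlap, and was not called (-0.29 ± 0.21, adjusted p = 0.409). Txnip, a brake on glucose uptake, was at 23.8, 71 and 48.5 FPKM in glucose and 26.9, 26.7 and 26.8 FPKM with hypoxanthine and was not called either (-0.68 ± 0.41, adjusted p = 0.307). Its glucose libraries were spread over a range that held all hypoxanthine libraries.

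Of 27 genes of the citrate cycle and pyruvate dehydrogenase, 15 were lower and 1 higher, with a median of -0.32, and with 9 lower without hypoxanthine library 3. Mdh2, mitochondrial malate dehydrogenase, went from 286, 274 and 255 FPKM to 217, 203 and 213 FPKM (-0.36 ± 0.07, adjusted p = 0.00609) and Suclg2 from 11.7, 12.5 and 12.4 FPKM to 7.93, 8.91 and 7.93 FPKM (-0.51 ± 0.07, adjusted p = 0.0017). The 2 isocitrate dehydrogenases that use NADP moved in opposite directions, with the cytosolic Idh1 at 3.04, 2.83 and 2.77 FPKM and 1.42, 1.66 and 1.70 FPKM (-0.58 ± 0.08, adjusted p = 0.00109) and the mitochondrial Idh2 at 9.38, 9.88 and 9.71 FPKM and 14, 12.7 and 13.3 FPKM (0.43 ± 0.07, adjusted p = 0.00281). Of 72 nuclear subunits of oxidative phosphorylation 17 were lower and 0 higher, with a median of -0.16, and with 9 lower without hypoxanthine library 3, 10 without glucose library 1, and 27 without inosine library 2. The lower share was 23.6%, against 9.55% of all genes. Of genes of 10 to 100 FPKM 895 of 4365 were lower, and of those of at least 100 FPKM 160 of 589, so the lower share was near that of abundant genes. The higher share was not, since 506 and 77 of these abundant genes were higher and 0 of the list. The ATP synthase gene Atp5b fell from 780.4, 745 and 739 FPKM to 592, 540.2 and 566 FPKM (-0.42 ± 0.07, adjusted p = 0.00454). None of the 13 genes of mitochondrial DNA was called, with COX1 at 4184, 3934 and 4537 FPKM in glucose and 4929, 8049 and 5374 FPKM with hypoxanthine (0.50 ± 0.22, adjusted p = 0.153). Among 18 genes of fatty acid oxidation 2 were higher and 2 lower, and with 0 higher without glucose library 1 or 3, or hypoxanthine library 3, and with 4 lower without inosine library 1.

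Among the genes by which cells make serine, charge tRNAs and respond to amino acid shortage, 11 of 21, 14 of 20 and 14 of 27 were called lower with hypoxanthine, and 0 higher. Serine is made from a glycolytic intermediate and feeds the folate cycle, whose one-carbon units go into the purine ring, and ATF4 is the transcription factor that switches on this programme and the tRNA synthetases. Of 27 genes of ATF4 and the integrated stress response 14 were lower and 0 higher, with a median of -0.48, and with 9 lower without hypoxanthine library 3. Atf4 itself was at 260.1, 188 and 209 FPKM in glucose, at 252, 175 and 225 FPKM in inosine alone and at 115, 105 and 108 FPKM with hypoxanthine (-0.99 ± 0.15, adjusted p = 0.00234). Every hypoxanthine library was below the lowest of the other 6. Nupr1, a stress-induced nuclear protein, fell from 10.4, 6.86 and 9.79 FPKM to 2.64, 2.40 and 2.31 FPKM (-1.52 ± 0.15, adjusted p = 0.000281), and Chac1, which breaks down glutathione, from 6.20, 4.39 and 4.78 FPKM to 1.59, 1.74 and 1.61 FPKM (-1.20 ± 0.14, adjusted p = 0.000556). The 2 inhibitors of mTORC1 signalling Sesn2 (-1.05 ± 0.12, adjusted p = 0.000583) and Ddit4 (-1.05 ± 0.21, adjusted p = 0.00835) fell too.

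ATF4 and its partner proteins bind the letters TGATGNAAT, which were searched on both strands of the 250 bases before each start site. They were in 3 of 27 promoters of the list, or 11.1%, and in 0.5% of 19576 promoters of all genes in the table. Of the 12 called genes of the list with a RefSeq promoter, Nupr1 was the 1 that held them. It is the gene whose promoter is shown with the match in capitals, read 5′ to 3′ on the gene's minus strand at chr7:126625471-126625720 of GRCm38.p6 in the RefSeq annotation.
Nupr1: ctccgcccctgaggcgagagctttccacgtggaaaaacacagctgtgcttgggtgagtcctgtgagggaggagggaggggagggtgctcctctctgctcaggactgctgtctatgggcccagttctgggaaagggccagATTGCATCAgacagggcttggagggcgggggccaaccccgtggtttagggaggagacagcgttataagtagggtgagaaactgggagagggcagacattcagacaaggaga

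Of 21 genes of serine and folate metabolism 11 were lower and 0 higher, with a median of -0.38, and with 7 lower without hypoxanthine library 3. Phgdh, the first enzyme of serine synthesis, went from 236, 194 and 198 FPKM to 159, 153 and 149.8 FPKM (-0.44 ± 0.09, adjusted p = 0.0114), and Psat1, the second, from 140.3, 109.7 and 117 FPKM to 73.6, 80.9 and 70.4 FPKM (-0.69 ± 0.10, adjusted p = 0.00154). Shmt1, which passes the serine carbon to cytosolic folate, fell from 45.3, 47.5 and 44.1 FPKM to 32.8, 31.8 and 32.5 FPKM (-0.48 ± 0.06, adjusted p = 0.000671), and Gcsh of the glycine cleavage system from 52.4, 46.1 and 47.4 FPKM to 24.7, 24.8 and 24.1 FPKM (-0.96 ± 0.06, adjusted p = 4.17e-05). The call of Phgdh was lost in 1 of 9 fits that left out 1 library, with the largest adjusted p, 0.05, without hypoxanthine library 3. In these 4 genes no hypoxanthine library reached the lowest glucose library. Of the 20 cytosolic aminoacyl-tRNA synthetases 14 were lower and 0 higher, with a median of -0.48. Nars, which charges asparagine tRNA, was at 129.7, 104 and 121 FPKM in glucose and 65.9, 65.7 and 64.9 FPKM with hypoxanthine (-0.83 ± 0.09, adjusted p = 0.000537). Tars (-0.70 ± 0.06, adjusted p = 0.00018), Hars (-0.64 ± 0.06, adjusted p = 0.000277) and Gars (-0.68 ± 0.11, adjusted p = 0.00264), for threonine, histidine and glycine, fell by similar sizes, and between 11 and 16 members were lower in the fits that left out 1 library.

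Of 19 amino acid transporters 7 were lower and 2 higher, and with 3 lower without glucose library 1 or 3, or hypoxanthine library 3, and 4 without hypoxanthine library 1 or 2, and with 0 higher without glucose library 1 or 3, or hypoxanthine library 1 or 3. Slc7a5, the light chain of the large neutral amino acid transporter, fell from 109.6, 91.2 and 91.7 FPKM to 49.3, 36.4 and 46.5 FPKM (-1.13 ± 0.24, adjusted p = 0.0104), and its heavy chain Slc3a2 from 77.9, 68.5 and 68.2 FPKM to 48.9, 40.6 and 48.8 FPKM (-0.63 ± 0.15, adjusted p = 0.0214). The call of Slc3a2 was lost in 4 of 9 fits that left out 1 library, with the largest adjusted p, 0.0754, without hypoxanthine library 2. Slc16a10, which carries aromatic amino acids, went from 11.5, 12.4 and 11.9 FPKM to 5.73, 4.92 and 5.84 FPKM (-1.0 ± 0.10, adjusted p = 0.000262). The glutamine transporter Slc1a5 was not called (0.15 ± 0.11, adjusted p = 0.385). Of 18 genes of the polyamine and methionine cycles 5 were lower and 3 higher, and with 0 higher without hypoxanthine library 1 or 3, and 1 without glucose library 1 or 3. Among the lower ones were the spermidine synthase gene Srm, at 174, 148 and 139 FPKM in glucose and 82, 68 and 79.6 FPKM with hypoxanthine (-1.0 ± 0.13, adjusted p = 0.00124), and the ornithine decarboxylase gene Odc1 (-0.43 ± 0.08, adjusted p = 0.00508).

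Ribosome assembly genes were mostly lower, and no gene of the cytosolic ribosomal protein list was called lower. Of 49 genes of ribosome biogenesis and nucleolar function 38 were called lower and 0 higher, with a median of -0.41, and between 30 and 40 were lower in the fits that left out 1 library. Ncl, nucleolin, was at 271, 243 and 272 FPKM in glucose, at 271, 281 and 284 FPKM in inosine alone and 176, 172 and 185 FPKM with hypoxanthine (-0.56 ± 0.07, adjusted p = 0.000828). Rrp12, a ribosomal RNA processing factor, fell from 19.2, 19.1 and 18.5 FPKM to 11.6, 9.96 and 10.7 FPKM (-0.77 ± 0.08, adjusted p = 0.000379), and Ltv1, an assembly factor of the small subunit, from 31.7, 32.3 and 32.4 FPKM to 20.0, 20.6 and 19.8 FPKM (-0.65 ± 0.06, adjusted p = 0.000169). The libraries of glucose and hypoxanthine did not overlap in any of these genes, as was so for 37.6% of all genes. Fbl, the methyltransferase fibrillarin, was at -0.41 ± 0.08, adjusted p = 0.00832, and Nop2, an RNA methyltransferase, at -0.57 ± 0.07, adjusted p = 0.00057. The E-box letters CACGTG, which MYC and its partner proteins bind, were in 4.2% of 48 promoters of this list and in 7.2% of all promoters on either strand.

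Myc itself moved against this direction. It was at 69.5, 71.8 and 64.7 FPKM in glucose and 118, 88.5 and 108 FPKM with hypoxanthine (0.60 ± 0.15, adjusted p = 0.0256), with no overlap. The call of Myc was lost in 5 of 9 fits that left out 1 library, with the largest adjusted p, 0.0901, without hypoxanthine library 1. Its paralog Mycn fell from 9.43, 11.3 and 9.71 FPKM to 4.06, 3.70 and 4.30 FPKM (-1.15 ± 0.09, adjusted p = 0.000115), while Mxd4, whose protein competes with MYC for the partner Max, rose from 3.89, 3.02 and 3.22 FPKM to 8.99, 9.49 and 9.59 FPKM (1.25 ± 0.14, adjusted p = 0.000494). Max itself rose too (0.40 ± 0.07, adjusted p = 0.00393), with 6 of the 12 genes of this network higher and 2 lower, and with 3 higher without glucose library 3, or hypoxanthine library 1 or 3.

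Of 76 cytosolic ribosomal protein genes 21 were called higher and 0 lower, with a median of 0.31. Rps18 went from 2036, 1724 and 1907 FPKM to 2553, 3217 and 2599 FPKM (0.56 ± 0.12, adjusted p = 0.0104) and Rpl17 from 1231, 1109 and 1055 FPKM to 1802, 2205 and 1874 FPKM (0.79 ± 0.13, adjusted p = 0.00299), while Rplp1 (0.24 ± 0.11, adjusted p = 0.165) and Rpl41 (0.07 ± 0.14, adjusted p = 0.774) were not called. This count depended on single libraries, since it was 3 without glucose library 2, 4 without glucose library 3, 5 without hypoxanthine library 2, 7 without hypoxanthine library 3, 11 without glucose library 1, and 34 without inosine library 2. It was 12 after rescaling by median-of-ratios factors. Ribosomal protein genes have many processed copies in the genome, so their levels are uncertain. Of 28 translation factors 16 were lower and 0 higher, with a median of -0.29, and with 6 lower without glucose library 1 or hypoxanthine library 3, 8 without glucose library 2 or hypoxanthine library 2, 9 without glucose library 3, and 10 without hypoxanthine library 1. Among them were the initiation factor gene Eif4g2 (-0.49 ± 0.07, adjusted p = 0.00134) and Eif2b1 (-0.60 ± 0.10, adjusted p = 0.00286), a subunit of the guanine exchange factor that the stress response inhibits.

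Most chaperone genes of the endoplasmic reticulum were lower too, as were smaller shares of the other chaperone and proteasome genes. Of 25 genes of endoplasmic reticulum chaperones and the unfolded protein response 15 were lower and 1 higher, with a median of -0.37, and 13 to 15 were lower in the fits that left out 1 library. Hsp90b1, the chaperone GRP94, was at 404, 384 and 417 FPKM in glucose and 248, 265 and 259 FPKM with hypoxanthine (-0.64 ± 0.06, adjusted p = 0.000305). Calr, calreticulin, went from 579, 539 and 529 FPKM to 374, 322 and 362 FPKM (-0.64 ± 0.09, adjusted p = 0.00137) and Pdia3, a disulfide isomerase, from 236, 246 and 239 FPKM to 161, 151 and 153 FPKM (-0.63 ± 0.06, adjusted p = 0.000208). All 3 are abundant in glucose and were about equally lower with hypoxanthine. The mitochondrial chaperone genes Hspd1 (-0.77 ± 0.06, adjusted p = 0.000115) and Hspa9 (-0.71 ± 0.08, adjusted p = 0.00051) fell, and 10 of 24 cytosolic and mitochondrial chaperones were lower, with Hspa8 at 0.01 ± 0.09, adjusted p = 1.0 and not called. Of 31 proteasome subunits 14 were lower and 0 higher, and with 5 lower without glucose library 1 or 3, or hypoxanthine library 3, 6 without hypoxanthine library 1, and 9 without inosine library 3. Psmd2, of the regulatory particle, was at 143, 153 and 141 FPKM in glucose and 107, 98.6 and 106 FPKM with hypoxanthine (-0.49 ± 0.06, adjusted p = 0.000982).

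**Figure D4:**
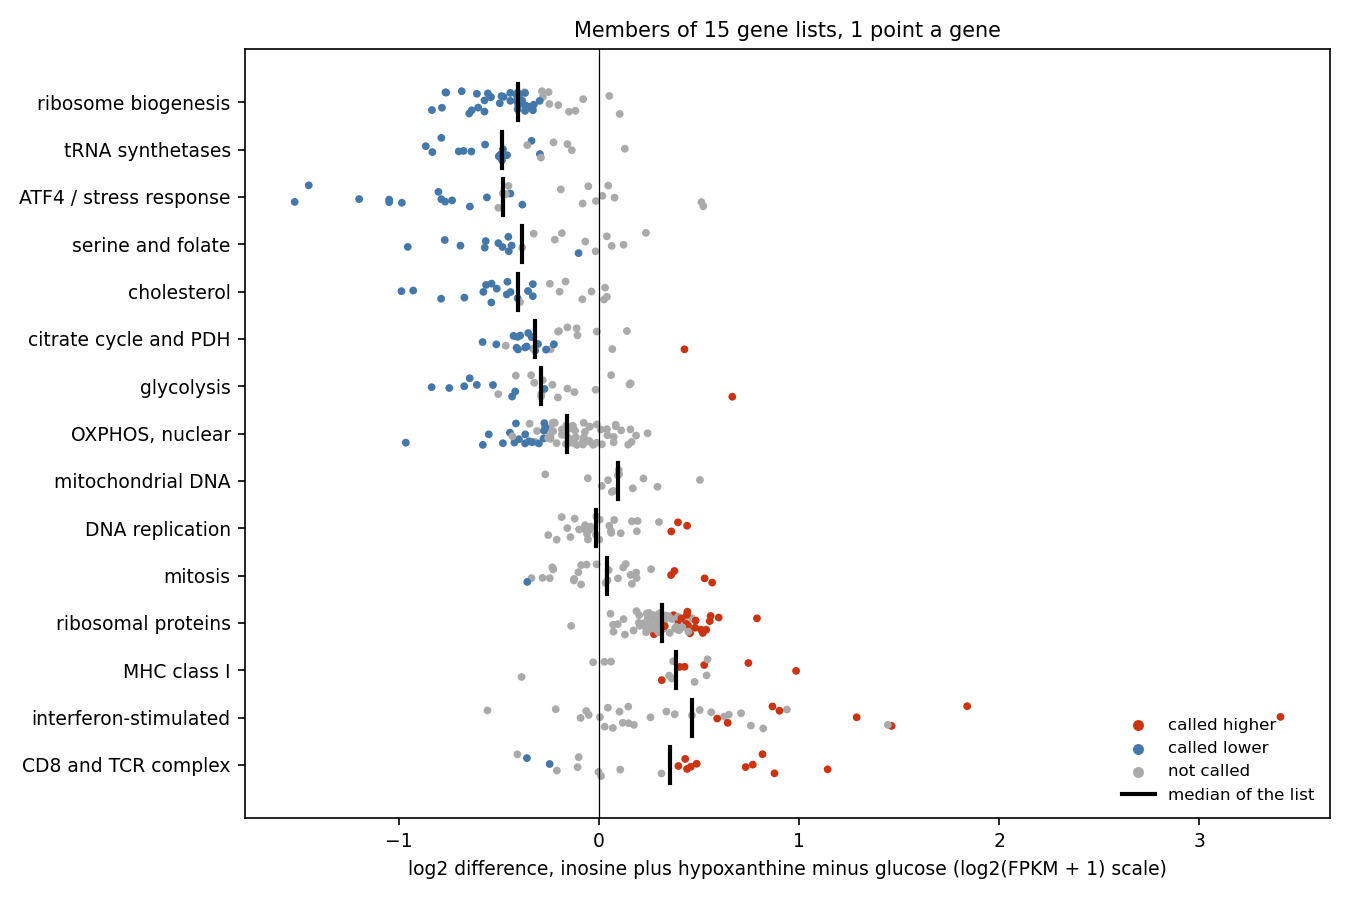
Log2 difference, inosine plus hypoxanthine minus glucose, of each member of 15 gene lists, with red for called higher, blue for called lower, grey for not called and a black bar at the list's median. The medians run from -0.48 for the tRNA synthetases and the ATF4 list to 0.46 for the interferon-stimulated genes, and the ribosome biogenesis list lies to the left of 0 while the ribosomal proteins lie to its right.

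Most sterol synthesis genes and a smaller share of the fatty acid synthesis genes were lower. Of 25 genes of cholesterol synthesis and uptake 16 were called lower and 0 higher, with a median of -0.41, and 12 to 18 were lower in the fits that left out 1 library. Hmgcs1, which makes the HMG-CoA from which sterols start, was at 79.8, 63.4 and 74.5 FPKM in glucose and 45.2, 44 and 45.7 FPKM with hypoxanthine (-0.67 ± 0.14, adjusted p = 0.00907). Lss, which closes the sterol rings, fell from 16.3, 15 and 15 FPKM to 7.51, 6.84 and 7.51 FPKM (-0.99 ± 0.09, adjusted p = 0.000196), and Fdps, which makes farnesyl pyrophosphate, from 190.3, 152 and 157 FPKM to 114, 111 and 109.6 FPKM (-0.56 ± 0.09, adjusted p = 0.00264). The hypoxanthine libraries of all 3 varied little and lay below all glucose libraries. Of 16 genes of fatty acid synthesis 7 were lower and 1 higher. Scd1, the stearoyl-CoA desaturase, fell from 21.7, 21.1 and 21.4 FPKM to 6.48, 5.27 and 6.06 FPKM (-1.69 ± 0.14, adjusted p = 0.000144), Scd2 from 152, 155 and 155 FPKM to 97.8, 82.9 and 98.1 FPKM (-0.73 ± 0.15, adjusted p = 0.0091), and the fatty acid synthase gene Fasn was at -0.28 ± 0.16, adjusted p = 0.267 and not called.

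The sterol regulatory letters TCACNCCAC, searched on both strands, were in 1 of 20 promoters of the cholesterol list, or 5.0%, and in 1.1% of all promoters. The promoter that held them was that of Hmgcs1, shown for the 250 bases before its start site on the plus strand at chr13:119690101-119690350, with the match in capitals.
Hmgcs1: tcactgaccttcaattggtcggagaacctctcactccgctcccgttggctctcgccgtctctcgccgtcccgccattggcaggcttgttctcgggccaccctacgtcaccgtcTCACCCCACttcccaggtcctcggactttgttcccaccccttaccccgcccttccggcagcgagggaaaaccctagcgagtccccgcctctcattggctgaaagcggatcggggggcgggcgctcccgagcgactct

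The granzymes, the proteases that cytotoxic cells inject into their targets, were mostly lower in their large cluster on chromosome 14. Gzma lies outside it on chromosome 13 and was called lower as well, at -1.49. It was named after its values were seen. Gzmb, the most abundant of them, was at 5560.3, 5417 and 5671 FPKM in glucose, at 5625, 5689 and 5515 FPKM in inosine alone and 2601, 2616 and 2537 FPKM with hypoxanthine. The glucose and inosine libraries were alike and more than 2 times as high as any hypoxanthine library, a difference of -1.10 ± 0.06, adjusted p = 2.31e-05. Gzmc went from 2066, 1422 and 1609 FPKM to 716, 677 and 639 FPKM (-1.31 ± 0.15, adjusted p = 0.000625), Gzmd from 172, 195 and 182 FPKM to 43.2, 50.5 and 42.5 FPKM (-1.99 ± 0.13, adjusted p = 3.86e-05) and Gzmg from 35.7, 32.1 and 33.9 FPKM to 4.88, 5.81 and 5.62 FPKM (-2.44 ± 0.10, adjusted p = 6.61e-06). These copies are similar in sequence, so reads may be split between them. Gzme was at -1.83 ± 0.12, adjusted p = 3.51e-05. On chromosome 14, from 56082163 to 56262334 in GRCm38.p6, the table lists 9 genes over 180.2 kb, the protease genes Mcpt8 and Ctsg at one end and Gzmb at the other. Of these 7 were called lower, and the remaining 2 had means under 0.1 FPKM. Gzmf and Mcpt8, which were named after their values were seen, were among the 7, Gzmf with -1.60 ± 0.12, adjusted p = 9.29e-05 and Mcpt8 with -1.61 ± 0.16, adjusted p = 0.00029.

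Outside the granzymes, Prf1 alone among the listed granule genes was called lower. Of 20 genes of granzymes and granule release 8 were lower, 3 higher and 9 not called. The 8 were Prf1 and the granzymes Gzma, Gzmb, Gzmc, Gzmd, Gzme, Gzmf and Gzmg. Prf1, the pore-forming protein perforin, was at 225, 153 and 175 FPKM in glucose and 113, 86.8 and 99.8 FPKM with hypoxanthine (-0.87 ± 0.21, adjusted p = 0.0202). The call of Prf1 was lost in 4 of 9 fits that left out 1 library, with the largest adjusted p, 0.0727, without hypoxanthine library 2. Nkg7, a membrane protein of cytotoxic granules, rose from 237, 237 and 227 FPKM to 367, 375 and 369 FPKM (0.66 ± 0.08, adjusted p = 0.000756).

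Cytokines and their relatives moved in both directions. Of 25 cytokine and TNF family ligand genes 9 were higher and 6 lower, with a median of 0.01, and with 5 higher without glucose library 2 or 3, or hypoxanthine library 2 or 3. Ifng, the main cytokine of CD8+ T cells, was at 259, 107 and 186 FPKM in glucose and 243, 246 and 235 FPKM with hypoxanthine, and was not called (0.48 ± 0.29, adjusted p = 0.302). The hypoxanthine libraries fell within the wide range of glucose. Tnf was at 24.3, 29.2 and 25.8 FPKM and 18, 18.5 and 18.6 FPKM (-0.50 ± 0.12, adjusted p = 0.0164), lower without overlap, as was its chromosomal neighbour Lta. The call of Tnf was lost in 3 of 9 fits that left out 1 library, with the largest adjusted p, 0.0571, without glucose library 2. The CD30 ligand gene Tnfsf8 rose from 11.4, 13.4 and 13.9 FPKM to 45.2, 44.9 and 48.6 FPKM (1.77 ± 0.09, adjusted p = 1.44e-05), and its receptor gene Tnfrsf8 fell from 7.92, 7.89 and 7.52 FPKM to 0.565, 0.501 and 0.488 FPKM, a 15-fold lower mean (-2.53 ± 0.08, adjusted p = 3.24e-06). Both changes were large against the spread, and they went in opposite directions. The death ligand gene Tnfsf10 (TRAIL) rose from 2.41, 2.80 and 3.20 FPKM to 7.75, 7.78 and 8.16 FPKM (1.23 ± 0.08, adjusted p = 4.57e-05). Of 11 chemokine genes 3 were called higher, Ccl1, Ccl5 and Xcl1, and 0 lower. Ccl3 lay at 48.3, 5.65 and 23.1 FPKM in glucose and 61.3, 67.9 and 62 FPKM with hypoxanthine, with no overlap, and was not called (1.70 ± 0.73, adjusted p = 0.142).

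The coreceptor gene Cd8a and 3 CD3 chains of the T cell receptor complex were higher. The abundant surface protein Thy1 was not called. Neither was Cd247, the zeta chain, at -0.41. The signalling genes Lck (-0.25) and Lat (-0.36) were called lower. These 3 were named after their values were seen. Of 20 genes of this group 10 were higher and 2 lower, with a median of 0.35, and with 6 higher without glucose library 2 or 3, or hypoxanthine library 3. Cd8a, one chain of the coreceptor for MHC class I, rose from 73.8, 82.6 and 77.2 FPKM to 168, 179 and 172 FPKM (1.14 ± 0.10, adjusted p = 0.000161). The invariant CD3 chains rose too, Cd3e from 95.7, 105 and 86.3 FPKM to 176, 151 and 164 FPKM (0.77 ± 0.09, adjusted p = 0.000632), Cd3d from 150.4, 148 and 144 FPKM to 246, 291 and 248 FPKM (0.82 ± 0.12, adjusted p = 0.00206) and Cd3g from 177, 209 and 199 FPKM to 346, 381 and 349 FPKM (0.88 ± 0.13, adjusted p = 0.00233). Each of these 4 genes had its lowest hypoxanthine library above its highest glucose library. Thy1 was at 471, 441 and 427 FPKM and 471, 426 and 451 FPKM (0.01 ± 0.07, adjusted p = 0.974), which overlap.

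Receptors that restrain or support the T cell were more often higher than lower. Of 16 inhibitory receptors and ligands 8 were higher and 3 lower, with a median of 0.31, and of 17 costimulatory and activation receptors 9 were higher and 3 lower, with a median of 0.45. Lag3, which binds MHC class II and dampens signalling, was at 25.9, 26.1 and 23.1 FPKM in glucose, at 23.3, 19.4 and 24.9 FPKM in inosine alone and 149, 116 and 137 FPKM with hypoxanthine, a 5.35-fold higher mean (2.37 ± 0.12, adjusted p = 1.21e-05). Tigit, another checkpoint receptor, rose from 37.3, 39.1 and 36 FPKM to 92.7, 78 and 91.4 FPKM (1.20 ± 0.10, adjusted p = 0.000121), and Cd200, a ligand of an inhibitory receptor, from 2.81, 1.26 and 1.96 FPKM to 12, 11.9 and 12.1 FPKM (2.14 ± 0.18, adjusted p = 0.000133). Not every checkpoint gene followed, as Ctla4 was at 131, 57 and 101 FPKM and 90.6, 106 and 101 FPKM and was not called (0.11 ± 0.33, adjusted p = 0.865). Among costimulatory receptors Cd27 rose from 22.9, 22.4 and 22.8 FPKM to 68.3, 60.2 and 64.7 FPKM (1.46 ± 0.06, adjusted p = 7.86e-06) and Slamf6, a receptor of memory and progenitor-like T cells, from 3.71, 2.57 and 3.17 FPKM to 11.9, 13.4 and 12.8 FPKM (1.73 ± 0.12, adjusted p = 6.04e-05). The neighbouring genes of OX40 and GITR, Tnfrsf4 (1.11 ± 0.16, adjusted p = 0.0019) and Tnfrsf18 (0.85 ± 0.14, adjusted p = 0.00304), rose as well, and Tnfrsf9, which encodes 4-1BB, was not called (0.21 ± 0.08, adjusted p = 0.09). Tnfrsf8, whose large fall is given above beside its ligand gene, was among the 3 lower members of the costimulatory list. The number of costimulatory genes called higher was 9 in each fit that left out 1 library.

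Cytokine receptors and homing receptors were divided. Of 24 interleukin, interferon and TGF-beta receptor chains 8 were higher and 6 lower, and with 3 lower without glucose library 2 or 3, or hypoxanthine library 2 or 3. The 3 chains of the interleukin 2 receptor each behaved differently, with Il2ra at 137, 131 and 137 FPKM and 136, 124 and 135 FPKM and not called (-0.04 ± 0.08, adjusted p = 0.821), Il2rb lower from 348, 346 and 335 FPKM to 227, 197 and 222 FPKM (-0.67 ± 0.11, adjusted p = 0.0037), and Il2rg higher from 178, 190.2 and 175 FPKM to 248, 258 and 250.0 FPKM (0.48 ± 0.09, adjusted p = 0.00702). Acvrl1, a receptor kinase for ligands of the TGF-beta family, fell from 10.0, 8.22 and 8.32 FPKM to 0.397, 0.368 and 0.367 FPKM, a 23.5-fold lower mean (-2.83 ± 0.14, adjusted p = 1.21e-05). The interleukin 12 receptor chain Il12rb2 rose from 44, 48.4 and 47 FPKM to 88.7, 82.9 and 92.1 FPKM (0.91 ± 0.08, adjusted p = 0.000169). Of 25 homing and adhesion receptors 6 were higher and 5 lower, and with 3 higher without glucose library 3. Ccr7, which guides cells into lymph nodes, was at 34.1, 23.2 and 25.4 FPKM in glucose and 125, 124 and 125 FPKM with hypoxanthine (2.16 ± 0.15, adjusted p = 5.75e-05), and Ccr2, which guides them to inflamed tissue, fell from 15.7, 13.7 and 16.6 FPKM to 5.93, 7.10 and 7.19 FPKM (-1.08 ± 0.12, adjusted p = 0.000505).

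Transcription factors of the T cell states moved one by one. Of 19 factors of naive and memory cells 6 were higher and 2 lower, with a median of 0.23, and with 0 lower without glucose library 3, or hypoxanthine library 1, 2 or 3. Of 23 factors of effector and exhausted cells 7 were higher and 5 lower, with a median of 0.07, and with 3 lower without glucose library 3, or hypoxanthine library 1 or 2. Bach2, a repressor that holds cells in a memory state, rose from 2.59, 2.34 and 2.33 FPKM to 8.03, 7.85 and 9.05 FPKM (1.44 ± 0.10, adjusted p = 5.27e-05). Tcf7, which encodes the memory factor TCF1, was at 3.96, 6.06 and 5.02 FPKM and 6.30, 6.46 and 7.65 FPKM, without overlap but not called (0.39 ± 0.13, adjusted p = 0.0613). Id2 and Id3, inhibitors of E proteins found in effector and memory precursor cells in turn, went opposite ways. Id2 fell from 162, 154 and 157 FPKM to 79.4, 80.6 and 78.2 FPKM (-0.98 ± 0.05, adjusted p = 2.25e-05), and Id3 rose from 11, 12 and 10.6 FPKM to 19.7, 18.9 and 20.3 FPKM (0.76 ± 0.09, adjusted p = 0.000866). Tox, a factor of exhausted cells, rose from 0.780, 0.938 and 0.999 FPKM to 2.63, 2.51 and 2.41 FPKM (0.89 ± 0.08, adjusted p = 0.000154), from a low level, and Stat4, which transmits the interleukin 12 signal, rose from 39.7, 31.5 and 37 FPKM to 74.1, 89 and 80.3 FPKM (1.15 ± 0.10, adjusted p = 0.000156).

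Genes that follow stimulation of the T cell receptor within hours were often higher. Of 33 immediate early genes and feedback regulators 15 were higher and 3 lower, with a median of 0.31, and 11 to 16 were higher in the fits that left out 1 library. Nr4a1, whose transcript tracks receptor signal strength, rose from 6.14, 5.27 and 5.84 FPKM to 18.6, 15.6 and 18.8 FPKM (1.46 ± 0.14, adjusted p = 0.00021), and its relative Nr4a2 from 7.45, 3.43 and 5.14 FPKM to 30.9, 26.8 and 31.3 FPKM (2.32 ± 0.31, adjusted p = 0.00117). Spry1, a feedback inhibitor of MAP kinase signalling, rose from 2.13, 2.06 and 2.09 FPKM to 10.5, 8.00 and 9.39 FPKM (1.73 ± 0.12, adjusted p = 4.57e-05). The AP-1 genes differed, with Fos higher (0.79 ± 0.08, adjusted p = 0.000242) and Junb (0.26 ± 0.27, adjusted p = 0.575) and Jund (-0.26 ± 0.22, adjusted p = 0.474) not called.

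Interferon-stimulated genes leaned upwards, with a wide spread in glucose. Of 35 measured genes 8 were higher and 0 lower, with a median of 0.46, and with 3 higher without glucose library 1 or 3, or hypoxanthine library 1, 2 or 3, and 13 without glucose library 2. Sp100, a nuclear body protein, was at 19.7, 29.4 and 23.7 FPKM in glucose and 45.8, 45 and 46.3 FPKM with hypoxanthine (0.90 ± 0.14, adjusted p = 0.00234), and Stat2, part of the interferon transcription complex, at 4.04, 6.56 and 4.90 FPKM and 9.67, 9.84 and 10.8 FPKM (0.87 ± 0.15, adjusted p = 0.00401). The hypoxanthine libraries of both were above all glucose libraries. Of 16 genes of MHC class I presentation 6 were higher and 0 lower, with a median of 0.39, and with 2 higher without glucose library 1 or 3, or hypoxanthine library 1 or 3, and 3 without inosine library 3. The nonclassical gene H2-T23 rose from 105, 115 and 106 FPKM to 229.5, 199.6 and 219 FPKM (0.98 ± 0.07, adjusted p = 7.73e-05), and the proteasome activator gene Psme2 from 212, 242 and 242 FPKM to 377, 417 and 376 FPKM (0.75 ± 0.14, adjusted p = 0.00592). The classical H2-D1 was not called (0.03 ± 0.11, adjusted p = 0.914). Histocompatibility genes have close copies, so their reads may be shared.

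The interferon response letters TTTCNNTTT, searched on both strands, were in 17 of 32 promoters of the interferon list, or 53.1%, against 7.7% of all promoters. They were in 5 of the 7 called genes that have a RefSeq promoter. The promoters of Sp100 and Stat2, members of the list described above, are shown as the 250 bases before the start site, both on the plus strand, with the match in capitals. They lie at chr1:85649738-85649987 and chr10:128270248-128270497.
Sp100: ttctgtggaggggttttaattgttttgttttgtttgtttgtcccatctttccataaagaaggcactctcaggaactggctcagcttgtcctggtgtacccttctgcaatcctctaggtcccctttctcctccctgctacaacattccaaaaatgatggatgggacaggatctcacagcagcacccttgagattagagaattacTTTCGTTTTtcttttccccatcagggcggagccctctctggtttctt
Stat2: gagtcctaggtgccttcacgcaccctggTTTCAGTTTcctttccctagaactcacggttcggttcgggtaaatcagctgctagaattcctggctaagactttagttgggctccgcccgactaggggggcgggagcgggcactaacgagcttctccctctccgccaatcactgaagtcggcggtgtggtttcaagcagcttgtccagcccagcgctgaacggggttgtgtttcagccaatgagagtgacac

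Few genes of cell division passed the test, where 31.0% of all genes of at least 1 FPKM were called. The higher shares, 10.0% for DNA replication and 14.3% for mitosis, were near the 10.8% of all genes. The lower shares were 0.0% and 3.57%, against 9.55% of all genes. Of 30 DNA replication genes 3 were higher and 0 lower, with a median of -0.01, and with 1 higher without glucose library 3. Of 28 mitosis genes 4 were higher and 1 lower, with a median of 0.04, and with 2 higher without hypoxanthine library 3, and with 3 lower without inosine library 2. The sliding clamp gene Pcna was at 315, 356 and 349.8 FPKM and 327, 391 and 348 FPKM (0.06 ± 0.11, adjusted p = 0.77), and the topoisomerase gene Top2a at 109, 146 and 143 FPKM and 143, 151 and 148 FPKM (0.16 ± 0.12, adjusted p = 0.436), neither called. The inhibitor of cyclin-dependent kinases Cdkn1a, p21, fell from 171, 141 and 147 FPKM to 62.1, 57.8 and 59.7 FPKM (-1.33 ± 0.12, adjusted p = 0.000204), cyclin D2 (Ccnd2) rose from 40.7, 50.5 and 47.1 FPKM to 83.1, 69.8 and 80.0 FPKM (0.74 ± 0.10, adjusted p = 0.0014), and cyclin D3 (Ccnd3) fell (-0.47 ± 0.08, adjusted p = 0.0053). Of 24 p53 target genes 9 were lower and 4 higher, and with 2 higher without hypoxanthine library 3. The death effector Bax was at 169, 169 and 162 FPKM in glucose and 110.1, 104 and 107 FPKM with hypoxanthine (-0.63 ± 0.06, adjusted p = 0.000197), while Trp53 itself was not called (0.22 ± 0.09, adjusted p = 0.12). The survival gene Mcl1 rose (0.37 ± 0.07, adjusted p = 0.00676) among 5 of 13 BCL2 family genes that were higher, with 2 lower, and with 3 higher without glucose library 3, or hypoxanthine library 2 or 3.

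Several smaller groups completed the picture. Carm1, the arginine methyltransferase in the title of the series, was at 24.7, 24.9 and 22.8 FPKM in glucose and 22.6, 16.8 and 22.2 FPKM with hypoxanthine and was not called (-0.23 ± 0.16, adjusted p = 0.377). Of 10 genes of arginine methyltransferases and their cofactor 4 were lower, also the count in each fit that left out 1 library, and 0 higher. Prmt5 fell from 104, 107 and 99.9 FPKM to 60.5, 59.7 and 62.2 FPKM (-0.76 ± 0.06, adjusted p = 8.6e-05), its cofactor Wdr77 from 27.3, 29.9 and 27.7 FPKM to 18.8, 15.6 and 18 FPKM (-0.67 ± 0.08, adjusted p = 0.000685), and Prmt1 from 261, 225 and 239 FPKM to 165, 168 and 161 FPKM (-0.55 ± 0.07, adjusted p = 0.000933). In the nuclear envelope Lmna was the 1 gene of 13 called lower, with the B-type lamin Lmnb1 not called (-0.02 ± 0.12, adjusted p = 0.976) and the linker protein gene Sun2 higher (0.79 ± 0.15, adjusted p = 0.00597), 1 of 2 higher members, and with 4 higher without inosine library 2. Calcium-binding proteins of the annexin and S100 families had 5 of 14 genes lower and 4 higher, and with 1 higher without hypoxanthine library 3, and 2 without glucose library 2 or 3. S100a4 was at 65, 56.6 and 62.1 FPKM in glucose and 14.9, 21.2 and 16.4 FPKM with hypoxanthine (-1.76 ± 0.14, adjusted p = 8.6e-05), and Anxa2 at -0.82 ± 0.07, adjusted p = 0.000168. Of 22 NRF2 and antioxidant genes 9 were lower and 1 higher, with Osgin1 falling from 4.43, 4.15 and 3.71 FPKM to 0.729, 0.734 and 0.670 FPKM (-1.57 ± 0.09, adjusted p = 2.28e-05), and the abundant Sod1 (-0.04 ± 0.08, adjusted p = 0.827) and Prdx1 (-0.08 ± 0.13, adjusted p = 0.713) not called. Of 27 lysosome and autophagy genes 9 were higher and 3 lower, and with 5 higher without glucose library 3, or hypoxanthine library 1 or 3. The protease genes Ctsd (-0.59 ± 0.11, adjusted p = 0.00487) and Ctsz (-0.70 ± 0.08, adjusted p = 0.000612) were among the lower and the sterol carrier Npc2 (0.49 ± 0.09, adjusted p = 0.00448) among the higher.

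**Figure D5:**
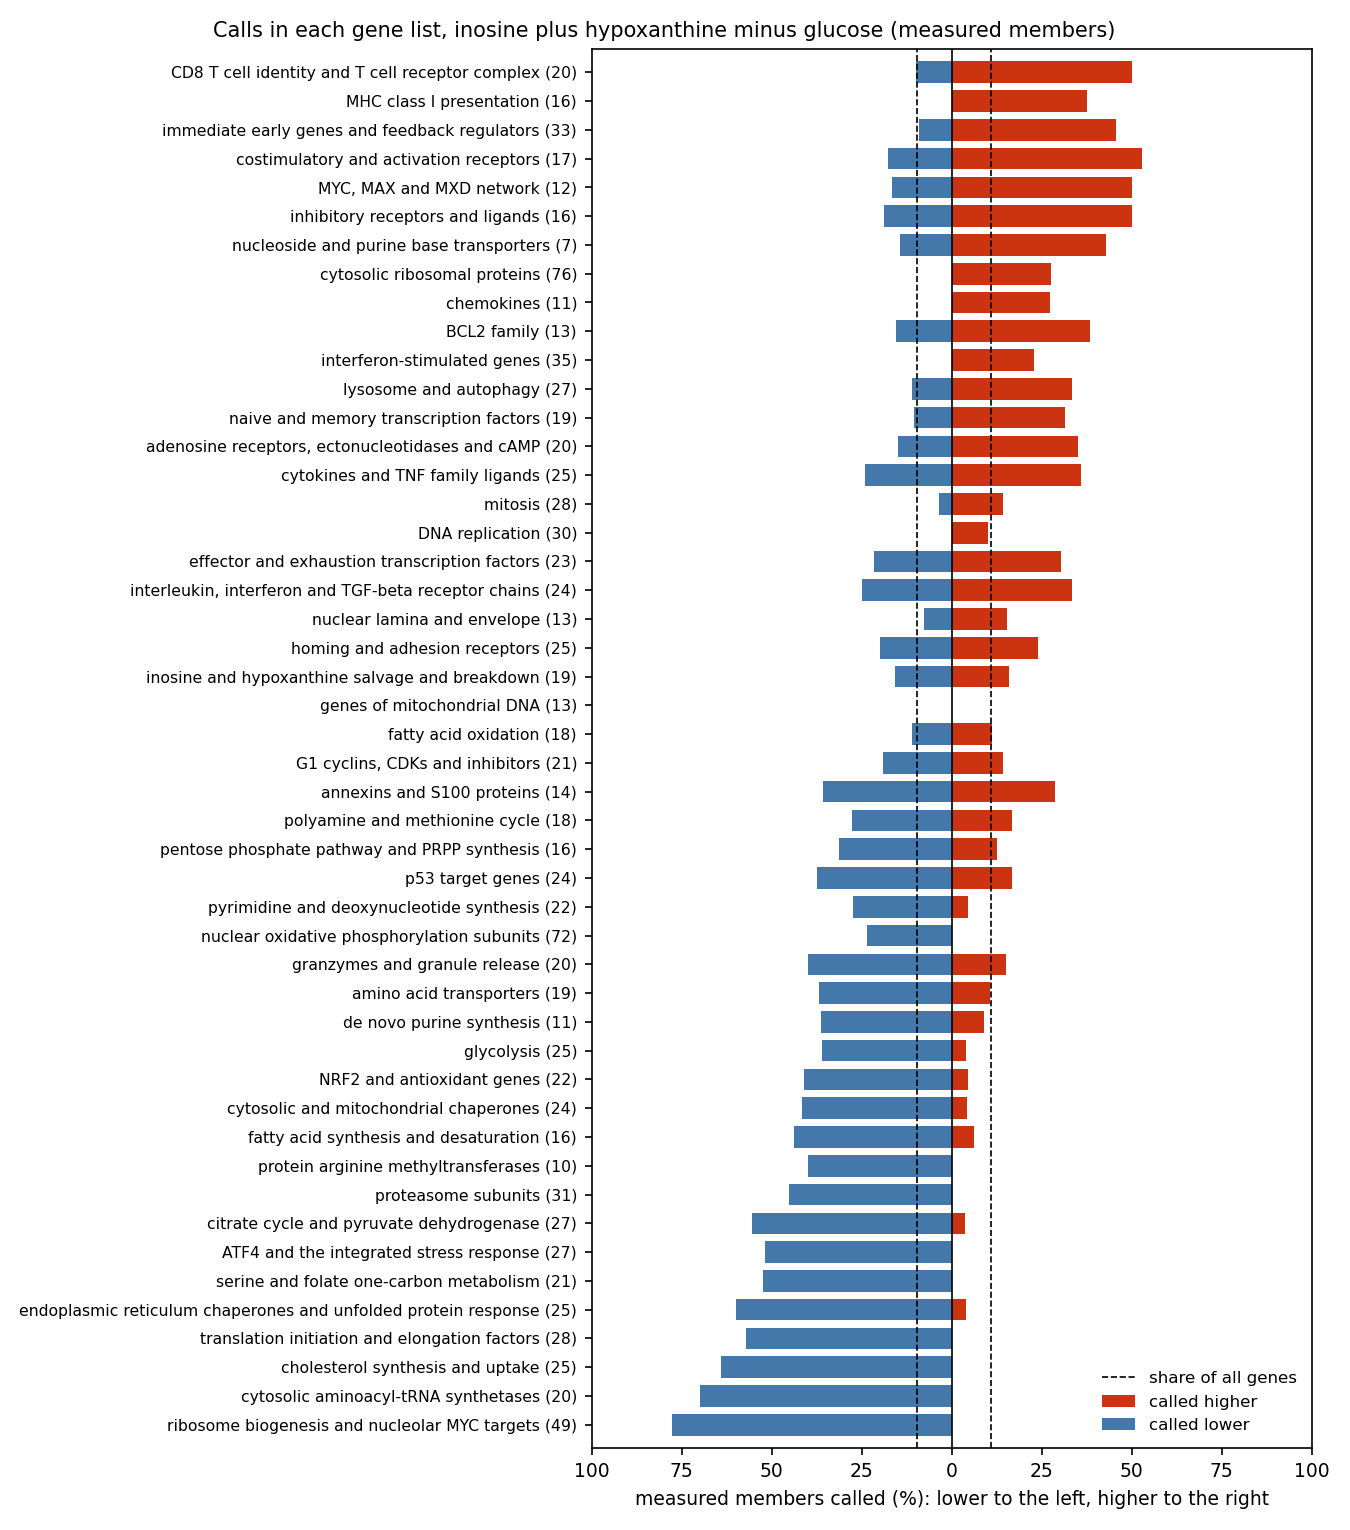
Share of the measured members of each of 48 gene lists called lower, to the left, and higher, to the right, in inosine plus hypoxanthine minus glucose, with the number measured in brackets and dashed lines at the shares of all genes, 9.55% lower and 10.8% higher. The lists are ordered by the difference of the 2 shares, from the T cell receptor group at the top to ribosome biogenesis, with 38 of 49 members lower, at the bottom.

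Against the inosine libraries the hypoxanthine libraries gave 2404 genes higher, or 11.7%, and 1978 lower, or 9.59%, and between inosine and glucose 2 genes were called, or 0.0097%, with 584 at an unadjusted p under 0.05. The comparison with inosine shares the 3 hypoxanthine libraries with the comparison described here, so its values are given side by side only. The ribosome biogenesis list had 38 lower members in it with a median of -0.45, the cholesterol list 16 with -0.36, the ATF4 list 14 with -0.44, and the T cell receptor group 11 higher members with 0.35. In the inosine libraries themselves the medians of these lists, taken against the glucose mean, ran from 0.02 to 0.07 for ribosome biogenesis and from -0.05 to 0.11 for cholesterol. They ran from -0.30 to 0.19 for ATF4 and from -0.02 to 0.07 for the T cell receptor group. The ATF4 range was the widest of these 4. In the hypoxanthine libraries the ATF4 medians ran from -0.54 to -0.43. In the authors' deposited table for hypoxanthine against glucose, 1374 genes or 6.66% were marked as different, 736 higher and 638 lower with hypoxanthine, and 1124 of them were also called here. The authors' adjusted p was under 0.05 for 5259 genes of that table, of which 3715 were called here.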

How the data were processed

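Per the labels, total RNA of sorted cells was sequenced paired-end, and the build was mm10. The tools named in the submitters' processing notes are HISAT2, DESeq2 1.38.3 and featureCounts with Subread 2.0.1, with no roles given. In the deposited tables each library has an FPKM value for each gene, a unit that the authors' column names do not state and that follows from the values. They also hold a mean signal of normalized reads per medium, log2 fold changes and p-values with their adjusted p-values, all computed by the authors. The authors' log2 fold change is glucose minus hypoxanthine, so its sign was turned.

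Here log2(FPKM + 1) of 20618 genes was fitted with limma 3.58.1 in R 4.3.3 (trend and robust settings, 9 libraries in 1 fit, 6 residual degrees of freedom), and calls were made at a Benjamini-Hochberg adjusted p under 0.05. Every ± beside a log2 difference is its standard error. Whole reads of 20507 genes (99.46%) were recovered from the deposited group means as whole-number solutions within a tolerance of 0.0005, widened to at most 0.05, and within 50% of the FPKM ratios between libraries, and served for depth and for limma voom. The members and the 48 lists were chosen with earlier results of these data known. Named genes were 16 fixed genes, the 12 largest rises and falls of at least 5 FPKM, and up to 6 members of each list, 3 by adjusted p and 3 by level. Sequences and coordinates come from RefSeq tables of GRCm38.p6. Scripts were tested on simulated data, and alternatives changed the pseudocount, filter, scaling, variance model, block and libraries. The number of deposited sample columns not used was 0.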

Additional observations from a re-analysis of the deposited data

How the results depend on the processing

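Between 2677 (without hypoxanthine replicate 3) and 4879 (without inosine replicate 2) genes were called when each library was left out in turn, 1464 to 2530 higher and 1213 to 2349 lower, and 2349 of the 4192 calls held in all 9 such fits. Other settings gave 3852 calls with a mean of at least 1 FPKM, 4571 with the 6 libraries only, 4283 after median-of-ratios scaling and 4513 with limma voom on recovered reads, which shared 3886 calls. Without the inosine and the hypoxanthine library of the highest mitochondrial share there were 4130. The deviations of equal-numbered glucose and hypoxanthine libraries correlated at 0.085, -0.20 and -0.063, and those of unequal-numbered libraries between -0.34 and 0.32. With 3 libraries a medium such values cannot decide whether the replicate numbers pair the libraries, and the labels do not say. With the replicate number as a block, 4251 genes were called over 9 libraries and 2110 over 6 libraries, 1120 higher and 990 lower, of which 1993 were among the 4192. The smaller fit leaves fewer degrees of freedom. Of 204 called named genes 150 kept their call in all 18 alternatives, and no named gene reversed. Of the 96 counts of list members called, 42 moved with the replicate block over 6 libraries, 37 without hypoxanthine replicate 3 and 0 with a pseudocount of 0.1. The list counts under the block are not printed above. Of the 4192 calls 1100 were of genes under 1 FPKM, where the log2(FPKM + 1) scale understates differences.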

Other observations

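Transcription factors as a class leaned towards higher levels with hypoxanthine. By the family names in the deposited annotation, 242 of 1235 factors were called higher and 50 lower, with a median log2 difference of 0.06. Among all genes 10.8% were higher and 9.55% lower. Of 740 factors of at least 1 FPKM 183 were higher and 40 lower, where of all 9965 such genes 1526 were higher and 1566 lower. Part of the higher share goes with level, since of all 5011 genes of 1 to 10 FPKM 943 were higher and 511 lower. The families below were not matched for level. Among 511 zinc finger factors of the C2H2 type 104 were higher and 10 lower, and among 46 of the ZBTB type, which join a zinc finger to a BTB domain, 19 were higher and 1 lower with a median of 0.21. In the Rel homology family, which holds the NF-kappa B and NFAT proteins, 5 of 10 were higher and 0 lower with a median of 0.42. The bZIP family, to which ATF4 and the AP-1 proteins belong, was divided, with 8 of 50 higher and 9 lower. No T-box factor of 11 was called by limma, but only 3 of them had a mean of at least 1 FPKM. These families were picked after their counts were seen.

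Several pathway maps of the deposited KEGG annotation held further groups, some of which overlap the lists above, and they too were picked after their counts were seen. Of 32 genes of the RNA polymerase map 14 were lower and 0 higher, with a median of -0.24. Of 49 genes of N-glycan biosynthesis 13 were lower and 5 higher, and of 37 genes of the ferroptosis map 14 were lower and 4 higher. Among all genes 9.55% were lower and 10.8% higher, so the higher count of the N-glycan map was near the general share. Of all 4365 genes of 10 to 100 FPKM 895 were lower and 506 higher, and of 589 genes of at least 100 FPKM 160 and 77. The maps were not matched for level. The opposite lean was seen in the map of SNARE interactions in vesicular transport, with 10 of 33 genes higher and 1 lower.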
